A study of Homo sapiens with 18 samples.

Results

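The FOS genes *FOS*, *FOSB*, *FOSL1* and *FOSL2*, the JUN genes *JUN*, *JUNB* and *JUND*, and *ATF3*, *EGR1* and *MAFF* form the set described here. These 10 genes of the AP-1 family and the immediate early response were chosen by gene name, out of 26702 genes in the deposited comparisons. Polyadenylated RNA was sequenced from U2OS cells, a human osteosarcoma line, in 18 samples that form 6 groups of 3. The groups were siControl with DMSO, siControl with Nutlin-3a, siANKRA2 with DMSO, siANKRA2 with Nutlin-3a, siRFXANK with DMSO and siRFXANK with Nutlin-3a. Nutlin-3a, which blocks the binding of MDM2 to p53 and thereby stabilizes p53, was given at 10 µM over 24 h, and DMSO was its solvent. ANKRA2 and RFXANK are related ankyrin repeat proteins, and RFXANK is a subunit of the RFX complex that binds MHC class II promoters. The labels name 1 siRNA for each target and do not say whether the 3 samples of a group came from separate cultures. The p-values therefore rest on a spread between samples that may be technical.

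AP-1 is a dimer of basic leucine zipper proteins. FOS proteins need a JUN partner to bind DNA, whereas JUN proteins can also pair with each other, and ATF3 and the small MAF protein MAFF join the same network of dimers. EGR1 is a zinc finger factor that is induced, like *FOS*, within minutes of a growth factor or stress signal through ERK, SRF and ELK factors, and the early transcripts of both decay quickly. A treatment of 24 h lies long after such an early wave.

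The tables hold group comparisons made by the authors with DESeq2, and the 10 genes were present in all 6 of them. A level below is a group mean in normalized counts recovered from the deposited log2 fold changes and their standard errors (SE), and its ± is the SD of a single sample that the same fit implies, with n = 3. The recovered levels fitted the SEs of the 10 genes to within 0.702%. The authors' mean of *JUND* was 1.38 times the mean of its recovered levels, and that of *JUNB* 0.699 times, so the scale of a level is approximate while the ratios between groups are those of the tables. Fewer cells in a responding state and less RNA per cell cannot be told apart in such bulk samples. How deeply each library was sequenced is unknown.

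The labels were checked on the knockdown targets and on p53 target genes. The recovered level of *ANKRA2* was 97.1 normalized counts in siControl with DMSO and 27.7 after siANKRA2. In Nutlin-3a it was 376 and 63.0. The authors' mean for this gene, 31568, lies far above every group level, for a reason that was not tested. Whether the authors' fit held samples beyond these 18, whose spread would enter the SEs and p-values, was not tested either. *RFXANK* stood at 824 normalized counts in siControl with DMSO and at 106 after siRFXANK. Each target also moved with the other siRNA. *RFXANK* fell by 0.37 ± 0.07 with siANKRA2 in DMSO and by 0.44 ± 0.07 in Nutlin-3a, and *ANKRA2* rose by 0.73 ± 0.11 and 0.46 ± 0.06 with siRFXANK. Whether this bears on the members was not tested. The direction of the siRFXANK comparisons was also checked without *RFXANK* itself. Of 269 genes with an authors' mean of at least 100 that differed by more than 1 on the log2 scale in both media, 269 had SEs that were fitted better by reading the tables as siRFXANK over siControl, with a median error of 0.681% against 10.8% for the reverse. The p53 target *CDKN1A*, an inhibitor of cell cycle kinases, rose with Nutlin-3a by 3.27 ± 0.04 (log2, SE) in siControl cells, and *MDM2* rose by 3.38 ± 0.05. In siANKRA2 cells they rose by 1.42 ± 0.04 and 2.19 ± 0.05.

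The mesenchymal markers *COL1A1*, *SPARC*, *VIM* and *RUNX2* were present in all 6 groups, with lowest group levels of 72798, 28145, 24062 and 376 normalized counts. The other 3 mesenchymal or bone markers were low, *COL1A2* at 24.5 to 76.5, *ALPL* at 32.5 to 246 and *SPP1* at 44.6 to 230 normalized counts. *ALPL*, which encodes an alkaline phosphatase, rose by 2.36 ± 0.16 with Nutlin-3a in siControl cells and by 2.35 ± 0.16 with siANKRA2 in DMSO. Its response was lower in siANKRA2 than in siControl cells by the normal test, with a difference of −2.49 ± 0.20, while that of *SPP1* was higher, with 1.23 ± 0.24. These 7 markers did not move as 1 group. With Nutlin-3a in siControl cells 5 rose and 2 fell, *SPP1* by 0.59 and *VIM* by 0.10. After siANKRA2 in DMSO 4 rose, while *VIM* fell by 0.55, *RUNX2* by 0.35 and *SPARC* by 0.18. Of the epithelial markers, *KRT8* and *KRT18* were also high, with at least 19130 and 12123 normalized counts, while *EPCAM* stayed at or below 180, *CDH1* at or below 50.6 and *KRT5* at or below 14.3. The summed epithelial markers were 37163 normalized counts in siControl with DMSO, 59074 in siANKRA2 with DMSO and 33815 in siRFXANK with DMSO, and most of this sum was *KRT8* and *KRT18*. *KRT19* and the endothelial marker *PECAM1* were missing from at least 1 table and have no recovered level. The leukocyte markers *PTPRC* and *CD14* reached at most 9.30 and 6.31 normalized counts, and the endothelial marker *CDH5* 7.35. The siRFXANK samples are labelled as epithelial cells from bone with a wild-type genotype, in another form than the rest, and have no siControl samples of their own. Whatever siRFXANK itself did and any difference in batch therefore cannot be told apart in comparisons with siControl. Whether the changes in keratins and mesenchymal markers play a role in the results was not tested.

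Several members carry a match to the same short pattern upstream of their RefSeq start, and these stretches are shown because the genes that hold them did not all move alike. Promoters from RefSeq on GRCh38.p14 were matched for 9 of the 10 genes, all but *FOSL1*. The 8-base element TGANNTCA was searched on both strands. This pattern takes in the form bound by ATF and CREB proteins and by JUN with ATF partners. Since it allows any 2 bases in the middle, a match need not be that form. It was found in *JUN*, *ATF3*, *JUND* and *MAFF*, which is 4 of 9 genes, and in 11.5% of 35116 promoters. The RefSeq starts of *JUN* and *MAFF* lie inside the spans given below from GENCODE 29, so in these 2 genes the element is downstream of the GENCODE start. The stretches below read 5′ to 3′ on the strand of the gene, with the element in capitals.
JUN, chr1:58784097-58784124, minus strand: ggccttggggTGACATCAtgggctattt
ATF3, chr1:212565274-212565301, plus strand: acctatgataTGACATCAtatggccact
JUND, chr19:18281805-18281832, minus strand: gccgcccccaTGACGTCAacccacaagg
JUND, chr19:18281659-18281686, minus strand: acgggggcggTGAGCTCAtcgcgccgag
MAFF, chr22:38201930-38201957, plus strand: gccgggtcggTGACGTCAccgcatgact

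The shorter AP-1 element TGANTCA, found in 7.71% of promoters, occurred in *FOSL2* alone among the 9, downstream of the RefSeq start. The 5 bases TGACG, which also lie inside some of the 8-base matches, were present in 8 of 9 genes against 24.6% of promoters, and *FOS*, *FOSB* and *JUNB* held them as the only form among those searched.
FOS, chr14:75278754-75278778, plus strand: gttgagcccgTGACGtttacactca
FOSB, chr19:45467926-45467950, plus strand: aaggggcgggTGACGtaagcagggg
JUNB, chr19:12791339-12791363, plus strand: ttcctgacagTGACGcgagccgcct

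A CArG box, the element bound by SRF, was present in 1.29% of promoters and, within the window searched, in *EGR1* alone among the 9 genes. There it occurred at positions −105 and −83 from the RefSeq start.
EGR1, chr5:138465364-138465415, plus strand: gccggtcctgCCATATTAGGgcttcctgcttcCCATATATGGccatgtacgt

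The 7 letters GTTGCNA, part of the sequence that RFX proteins bind, were found in 9.21% of promoters and in 0 of the 9 genes. All these searches covered only a window around the RefSeq start, which in *FOS* began at chr14:75278578, and elements outside it were not sought. A match is a description of letters in this window and is not evidence of binding, and a missing match says nothing about a factor.

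In the GENCODE 29 annotation of GRCh38 (hg38), *JUN* (ENSG00000177606) spans chr1:58780788-58784327 on the minus strand and *JUND* (ENSG00000130522) chr19:18279760-18281622 on the minus strand. *FOSL1* (ENSG00000175592) spans chr11:65892049-65900573, also on the minus strand. On the plus strand lie *FOS* (ENSG00000170345) at chr14:75278774-75282230, *FOSB* (ENSG00000125740) at chr19:45467995-45475179 and *FOSL2* (ENSG00000075426) at chr2:28392448-28417312. The same strand holds *ATF3* (ENSG00000162772) at chr1:212565334-212620777, *EGR1* (ENSG00000120738) at chr5:138465490-138469315 and *MAFF* (ENSG00000185022) at chr22:38200767-38216511. Exons of *JUNB* (ENSG00000171223), at chr19:12791496-12793315 on the plus strand, overlap exons of *HOOK2* on the opposite strand, and since the use of strand in counting is not given in the sources used here, reads of the 2 genes cannot be told apart. *FOSB*, *FOSL2* and *MAFF* overlap other genes outside their exons only. Of the stretches of 31 bases in the longest transcript, 8.24% for *FOSL1* and 2.21% for *MAFF* also occur in transcripts of other genes, and the share was at most 0.0644% for the other 8 genes.

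In siControl cells treated with DMSO, the members differed widely in abundance. Per kb of exon, *JUND* had 1706 normalized counts, *FOSL2* 1536, *JUN* 1385 and *EGR1* 1094. *JUNB* with 714 and *FOSL1* with 619 came next, and with levels scaled to the authors' mean these changed places, with 499 and 559. *ATF3* had 234, *MAFF* 113, *FOS* 94.0 and *FOSB* 13.8, so the founding member *FOS* was among the scarcest AP-1 transcripts in these cells. *FOSB* was also the only member below a mean of 100 normalized counts, and 9 of the 10 genes passed that filter.

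**Figure D1:**
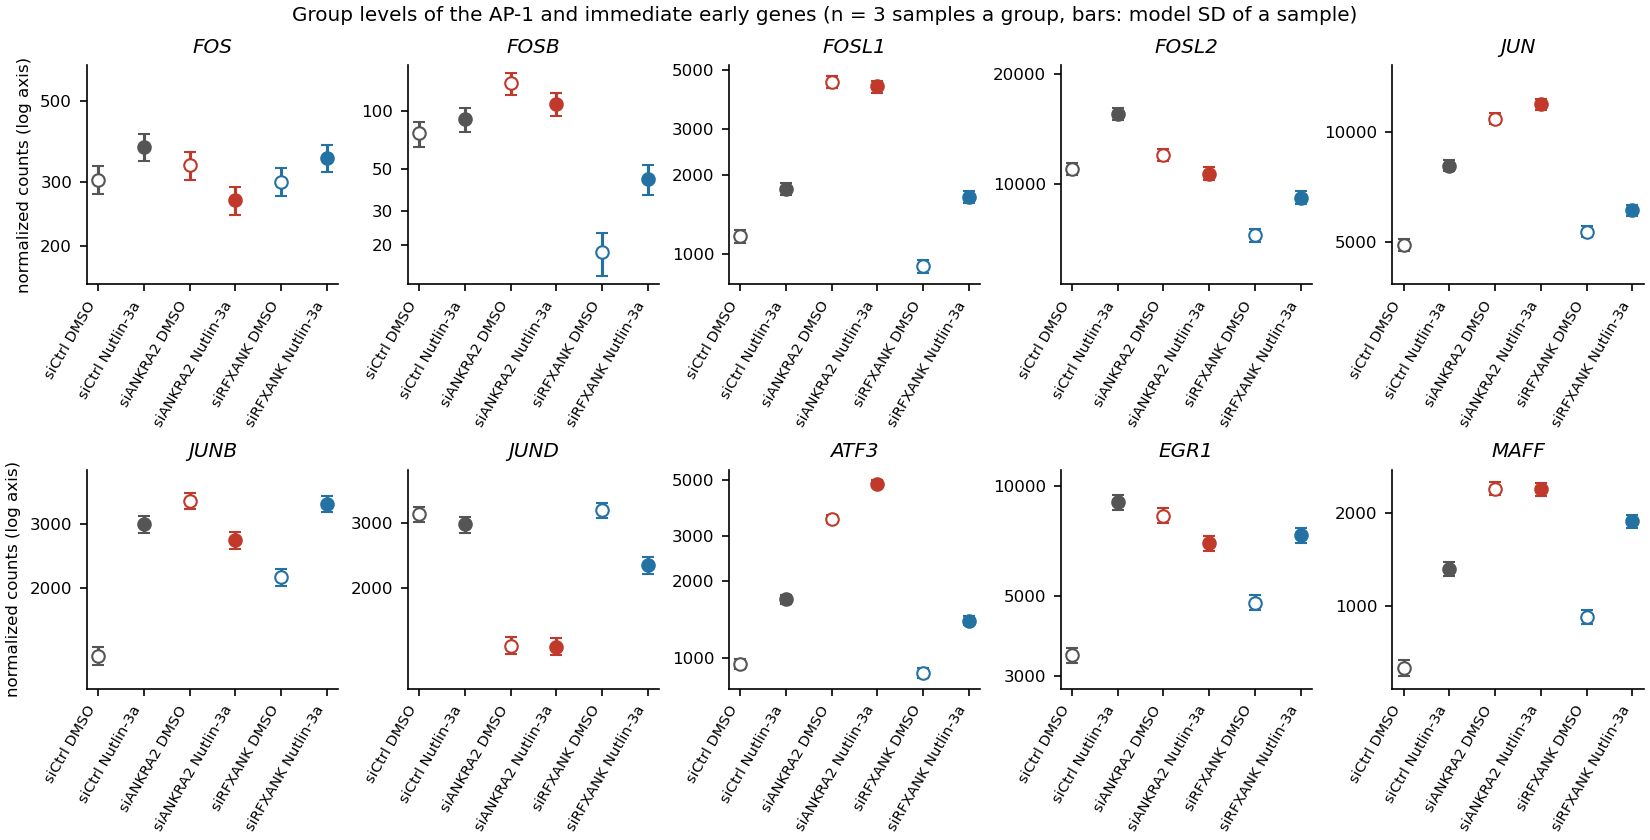
Group levels of the 10 genes in normalized counts on a log axis, for the 6 groups of n = 3 samples; open circles are DMSO, filled circles Nutlin-3a, and bars show the SD of a sample implied by the fit. *FOSL1*, *ATF3*, *MAFF*, *JUN* and *FOSB* were highest in both siANKRA2 groups, where *JUND* was lowest.

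The first comparison asks what p53 stabilization by Nutlin-3a did to these genes in siControl cells. *EGR1* rose from 3432 ± 165 to 9030 ± 418 normalized counts, and *JUNB* from 1299.9 ± 72.2 to 2991 ± 154. *MAFF*, whose protein lacks an activation domain and acts by dimerization, rose from 634 ± 36.8 to 1321 ± 66.6. These were the 3 members that at least doubled, with log2 fold changes of 1.40 ± 0.06 (SE), 1.202 ± 0.06 and 1.06 ± 0.06. Of 13103 genes with an authors' mean of at least 100 normalized counts, 355 had a higher fold change than *EGR1*.

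*ATF3*, a stress-induced repressor or activator depending on its partner, went from 945 ± 41.9 to 1699 ± 65.6 normalized counts, a log2 fold change of 0.85 ± 0.05. *JUN* went from 4903 ± 176 to 8088 ± 282, and *FOSL1* from 1169 ± 67.3 to 1770 ± 97.4. *FOSL2* rose from 10994 ± 438 to 15582 ± 616. The log2 fold changes of the last 3 genes were 0.72, 0.60 and 0.50. *FOS* rose least among the genes called, by 0.30 ± 0.10 from 304 ± 26.6 normalized counts, with an adjusted p of 0.00842 in the authors' DESeq2 test.

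In all, 8 of 10 members rose in siControl cells, where 21.9% of 25909 genes did, and 0 fell, against 21.2%, with 0 falls also at an unadjusted p under 0.05 in the authors' DESeq2 test. These shares, here and below, are over all genes tested whatever their mean, whereas 9 of the 10 members had a mean of at least 100. Shares among genes with such means were not computed. The authors' DESeq2 test gave *FOSB* an adjusted p of 0.266, with a 95% interval of −0.09 to 0.58 on the log2 scale, and *JUND* one of 0.211, with an interval of −0.21 to 0.02. The median log2 fold change was 0.66 over the 10 genes and 0.02 over all genes tested.

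In siANKRA2 cells the same treatment gave another picture. Here 2 of 10 members rose (15.5% of 22738 genes did) and 4 fell (17.0% did), with a median log2 fold change of −0.11 beside 0.01 over all genes. *ATF3* rose from 3503 ± 121 to 4814 ± 161 normalized counts, by 0.46 ± 0.04. *JUN* rose from 10904 ± 375 to 11936 ± 409, by 0.13 ± 0.04. *JUNB* fell from 3465 ± 177 to 2700 ± 140 normalized counts and *EGR1* from 8303 ± 385 to 6961 ± 325, the reverse of their course in siControl cells. *FOS* fell by 0.32 ± 0.10 and *FOSL2* by 0.17 ± 0.05 on the log2 scale. *MAFF* (2395 and 2382 normalized counts in DMSO and Nutlin-3a) and *JUND* (1385 and 1376) had adjusted p-values of 0.942 and 0.937 in the authors' DESeq2 test. *FOSL1* had one of 0.538, with a 95% interval of −0.18 to 0.06, and *FOSB* one of 0.0713, with an interval of −0.66 to −0.05 before adjustment.

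**Figure D2:**
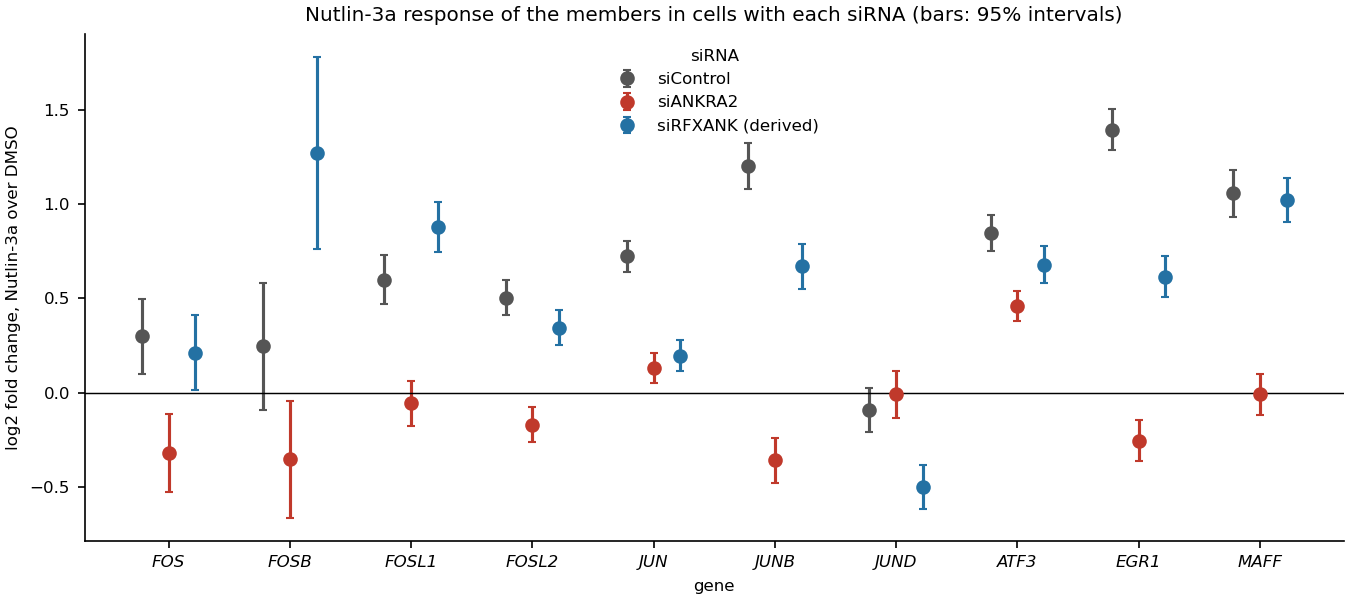
Log2 fold change of Nutlin-3a over DMSO for each gene in siControl, siANKRA2 and siRFXANK cells, the last derived from the other comparisons; bars are 95% intervals. The siANKRA2 values lie below the siControl values in all genes but *JUND*.

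The difference between these responses was tested directly, with a normal test on the difference of the log2 fold changes and Benjamini-Hochberg adjustment over 22738 genes. Of the 10 members, 9 had a lower response in siANKRA2 cells, as did 12.5% of all genes, and 0 a higher one, against 11.4%, also at an unadjusted p under 0.05. *EGR1* differed by −1.65 ± 0.08 on the log2 scale, and only 68 of the 13103 more abundant genes had a lower value. *JUNB* differed by −1.56 ± 0.09, with 81 genes lower, and *MAFF* by −1.07 ± 0.08, with 229 genes lower. The remaining differences were smaller. *FOSL2* (−0.67 ± 0.07), *FOSL1* (−0.66 ± 0.09), *FOS* (−0.62 ± 0.14), *FOSB* (−0.60 ± 0.23), *JUN* (−0.59 ± 0.06) and *ATF3* (−0.39 ± 0.06) all passed the test. The normal test gave *FOSB* an adjusted p of 0.0442, which held neither at 0.01 nor when the difference was formed from the siANKRA2 comparisons in both media. *JUND* was the exception, with a difference of 0.08, a 95% interval of −0.09 to 0.25 and an adjusted p of 0.57 by the normal test. The median was −0.64 over the members and −0.02 over all genes. The p53 targets also had lower responses in siANKRA2 cells by the normal test, with differences of −1.85 ± 0.06 for *CDKN1A* and −1.19 ± 0.07 for *MDM2*, and whether this bears on the members was not tested.

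The levels behind these differences show that siANKRA2 and siControl cells differed already in DMSO. After siANKRA2 in DMSO, *FOSL1* stood at 4516 ± 234 normalized counts against 1169 ± 67.3 in siControl, a log2 fold change of 1.95 ± 0.06. *MAFF* stood at 2395 ± 112 against 634 ± 36.8, and *ATF3* at 3503 ± 121 against 945 ± 41.9. These 3 genes rose by 3.86, 3.78 and 3.71 times, and 130, 135 and 136 of the 13103 more abundant genes had a higher fold change. *JUNB* rose by 1.41 ± 0.06 on the log2 scale, *EGR1* by 1.27 ± 0.06 and *JUN* by 1.15 ± 0.04. *FOSB* rose from 76.4 ± 11.5 to 139.6 ± 18.1 normalized counts. *FOSL2* rose by 0.13 ± 0.05, with an adjusted p of 0.0147 in the authors' DESeq2 test, which did not hold at 0.01.

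*JUND* went the other way, from 3179 ± 158 to 1385 ± 74.5 normalized counts, a log2 fold change of −1.199 ± 0.06, and 525 of the more abundant genes had a lower value. JUND is the JUN protein that is usually present in resting cells and not induced as an early gene. In total 8 of 10 members rose with siANKRA2 in DMSO, against 24.3% of 26702 genes, and 1 fell, against 24.5%. The authors' DESeq2 test gave *FOS* an adjusted p of 0.313, with a 95% interval of −0.07 to 0.33. The median log2 fold change over the members was 1.21, beside 0.01 over all genes. The p53 targets parted in this comparison. *CDKN1A* rose by 2.04 ± 0.04, whereas *MDM2* had −0.11 ± 0.05 and an adjusted p of 0.0654 in the authors' DESeq2 test.

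Cells with siANKRA2 in DMSO were also set beside siControl cells in Nutlin-3a, a pair of groups that none of the tables compares, with the SE taken from the recovered fit and no test across genes. *FOSL1* was higher by 1.35 ± 0.06 on the log2 scale with the knockdown alone, *ATF3* by 1.04 ± 0.04, *MAFF* by 0.86 ± 0.06, *FOSB* by 0.62 ± 0.16, *JUN* by 0.43 ± 0.04 and *JUNB* by 0.21 ± 0.06. *EGR1* was lower by a value of −0.12 ± 0.05, *FOSL2* by −0.38 ± 0.05 and *JUND* by −1.11 ± 0.06. For *FOS* the 95% interval of the difference, −0.17 ± 0.10, included 0.

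In Nutlin-3a, siANKRA2 cells had higher levels of some members than siControl cells and lower levels of others. There 4 of 10 members were higher after siANKRA2, against 24.6% of all genes, and 5 lower, against 25.5%, with a median log2 fold change of 0.06 beside −0.01 over all genes. Shares among genes with a mean of at least 100 were not computed here either. *ATF3* was higher by 1.50 ± 0.04, *FOSL1* by 1.29 ± 0.06, *MAFF* by 0.85 ± 0.06 and *JUN* by 0.56 ± 0.04. *JUND* was lower, with −1.12 ± 0.06, as were *FOSL2* with −0.55 ± 0.05, *FOS* with −0.49 ± 0.10 and *EGR1* with −0.38 ± 0.05. *JUNB* had a log2 fold change of −0.15 ± 0.06 and an adjusted p of 0.0321 in the authors' DESeq2 test, which did not hold at 0.01. *FOSB* had an adjusted p of 0.174 in the same test. The siANKRA2 comparisons in DMSO and in Nutlin-3a use different siControl samples, whereas each shares its siControl group with the Nutlin-3a comparison in siControl cells and with a siRFXANK comparison.

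**Figure D3:**
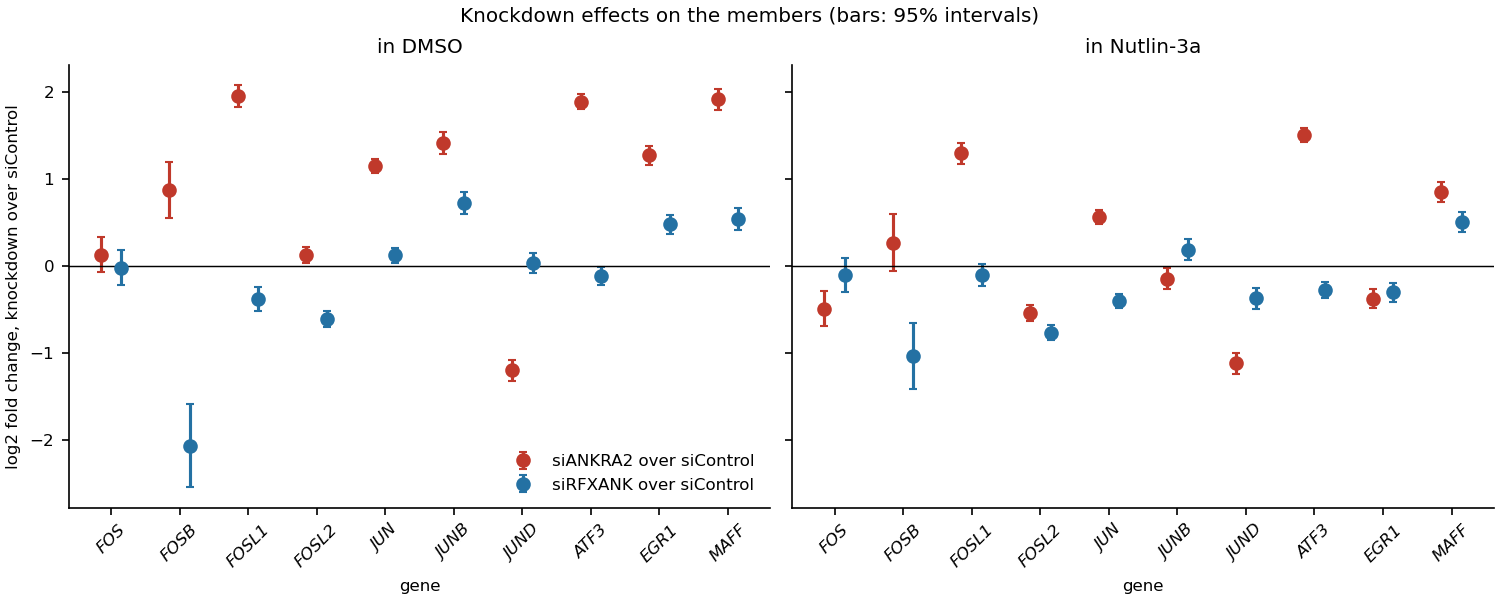
Log2 fold change of siANKRA2 and of siRFXANK over siControl for each gene, in DMSO and in Nutlin-3a; bars are 95% intervals. In DMSO, *FOSL1*, *ATF3* and *MAFF* lie near 1.9 for siANKRA2, *JUND* at −1.199 for siANKRA2 and *FOSB* at −2.06 for siRFXANK.

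With siRFXANK, the members split in both directions. In DMSO 4 of 10 were higher than in siControl, against 20.9% of 25909 genes, and 3 lower, against 21.2%, with a median of 0.01 for the members and 0.01 over all genes. Again, shares among genes with a mean of at least 100 were not computed. *FOSB*, which encodes a FOS protein with a long-lived splice form, fell from 76.4 ± 11.5 to 18.3 ± 4.64 normalized counts. Its log2 fold change of −2.06 ± 0.25 was lower than that of all but 9 of the 13103 more abundant genes. *FOSL2* fell from 10994 ± 438 to 7222 ± 292 normalized counts, by 0.61 ± 0.05, and *FOSL1* from 1169 ± 67.3 to 899 ± 53.8, by 0.38 ± 0.07. *JUNB* rose by 0.72 ± 0.06, *MAFF* by 0.54 ± 0.07 and *EGR1* by 0.48 ± 0.06. *JUN* rose by 0.12 ± 0.04, with an adjusted p of 0.0117 in the authors' DESeq2 test, which did not hold at 0.01. *FOSB*, *FOSL1* and *FOSL2* were thus lower and *JUNB*, *MAFF* and *EGR1* higher, while *FOS*, *JUND* and *ATF3* had adjusted p-values of 0.92, 0.677 and 0.0738 in that test. *ATF3* passed when only genes with a mean of at least 100 were adjusted.

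In Nutlin-3a, 2 of 10 members were higher with siRFXANK than with siControl, against 19.8% of 25116 genes, and 6 lower, against 19.6%. The median was −0.29 over the members and 0.02 over all genes. *FOSB* had 44.1 ± 7.93 normalized counts against 90.5 ± 13.0, a log2 fold change of −1.04 ± 0.19. *FOSL2* was lower by a value of −0.76 ± 0.05, *JUN* by −0.41 ± 0.04, *JUND* by −0.37 ± 0.06, *EGR1* by −0.30 ± 0.05 and *ATF3* by −0.28 ± 0.05. *MAFF* was higher by 0.51 ± 0.06, close to its value in DMSO, and *JUNB* by 0.19 ± 0.06. The authors' DESeq2 test gave *FOS* an adjusted p of 0.453 and *FOSL1* one of 0.238.

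The response of siRFXANK cells to Nutlin-3a was derived by adding the siControl response to the difference of the siRFXANK effects in Nutlin-3a and DMSO. The same formula gave the deposited siANKRA2 response to within 1.39e-14 on the log2 scale in 22738 genes. By the normal test 8 of 10 members rose, against 22.8% of 25116 genes, and 1 fell, against 22.5%, with a median of 0.64 beside 0.01 over all genes. *FOSB* rose by 1.27 ± 0.26, *MAFF* by 1.02 ± 0.06, *FOSL1* by 0.88 ± 0.07, *ATF3* by 0.68 ± 0.05, *JUNB* by 0.67 ± 0.06 and *EGR1* by 0.61 ± 0.06. *FOSL2* and *JUN* rose by 0.34 and 0.20. *JUND* fell from 3261 ± 162 to 2303 ± 118 normalized counts, by 0.50 ± 0.06, and the normal test gave *FOS* an adjusted p of 0.0762.

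Set against siControl by the normal test of the difference, 4 of 10 responses were lower in siRFXANK cells, against 9.64% of 25116 genes, and 2 higher, against 11.6%. *EGR1* differed by −0.78 ± 0.08, and 158 of the more abundant genes had a lower value. *JUNB* and *JUN* both differed by −0.53, with SEs of 0.09 and 0.06, and *JUND* by −0.41 ± 0.08. Among the p53 targets *CDKN1A* differed by −0.82 ± 0.06 and *MDM2* by −0.33 ± 0.07. *FOSB* responded more, by 1.03 ± 0.31, as did *FOSL1*, by 0.28 ± 0.09 with an adjusted p of 0.019 in the normal test. The latter did not hold at 0.01. *MAFF* and *FOS* had differences of −0.03 and −0.09, with 95% intervals of −0.21 to 0.14 and −0.37 to 0.19. The adjusted p of the normal test was 0.074 for *FOSL2* and 0.074 for *ATF3*, and both passed when only genes with a mean of at least 100 were adjusted. Lower responses of *EGR1*, *JUNB* and *JUN* were thus called with both knockdowns, in comparisons that share the siControl samples.

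The order of the 6 group levels differed from gene to gene. *FOSL1* was highest in the siANKRA2 groups, 4516 ± 234 and 4339 ± 225 normalized counts, which did not differ beyond their 95% interval, and lowest in siRFXANK with DMSO. Its levels in siControl and siRFXANK cells with Nutlin-3a, 1770 and 1652, were also neighbours that did not differ. *MAFF* was highest in the siANKRA2 groups, again without a difference between them, and lowest in siControl with DMSO. *JUN* ran from 11936 in siANKRA2 with Nutlin-3a to 4903 in siControl with DMSO. All 5 neighbouring pairs in the order of *JUN* differed beyond the interval, as did all 5 of *ATF3*, which ran from 4814 in siANKRA2 with Nutlin-3a to 874 in siRFXANK with DMSO. For the lowest pair of *ATF3*, siControl and siRFXANK in DMSO, the authors' DESeq2 test gave an adjusted p of 0.0738. *EGR1* ran from 9030 in siControl with Nutlin-3a to 3432 in siControl with DMSO, and its levels in siRFXANK with Nutlin-3a, 7325, and siANKRA2 with Nutlin-3a, 6961, were neighbours that did not differ. *JUNB* peaked at 3465 in siANKRA2 with DMSO and 3408 in siRFXANK with Nutlin-3a, also within the interval.

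*JUND* had 3261, 3179 and 2981 normalized counts in siRFXANK with DMSO, siControl with DMSO and siControl with Nutlin-3a, where neighbours did not differ beyond the interval but the outer pair did, by 0.13 ± 0.06 on the log2 scale. Lower still were 2303 in siRFXANK with Nutlin-3a, and 1385 and 1376 in the siANKRA2 groups. *FOSL2* was highest in siControl with Nutlin-3a, at 15582, and lowest in siRFXANK with DMSO, at 7222, and its levels in siControl with DMSO and siANKRA2 with Nutlin-3a did not differ. *FOSB* ran from 139.6 to 18.3, a range of 7.64 times and the widest of the set. Its levels of 109 in siANKRA2 with Nutlin-3a, 90.5 in siControl with Nutlin-3a and 76.4 in siControl with DMSO were neighbours that did not differ, although the first and last of these 3 did, by 0.52 ± 0.17. *FOS* ranged from 374 in siControl with Nutlin-3a to 267 in siANKRA2 with Nutlin-3a, 1.40 times. No neighbouring pair of *FOS* differed beyond its interval, but the 2 ends of its order did, as given above with −0.49 ± 0.10.

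These shifts changed the makeup of each family, compared here per kb of exon. Summed over the FOS genes, siControl with DMSO had 2263 normalized counts per kb, siANKRA2 with DMSO 4199.5 and siRFXANK with DMSO 1582. *FOSL2* made up 67.9% of that sum in siControl with DMSO and *FOSL1* 27.4%. After siANKRA2 in DMSO the order turned, with 57.0% *FOSL1* and 39.97% *FOSL2*, and in Nutlin-3a it was 59.1% and 38.3%. Nutlin-3a in siControl cells raised the sum to 3247 with shares of 28.9% and 67.1%, so its makeup stayed close to that in DMSO. *FOS* and *FOSB* together stayed minor, with *FOS* at most at 5.87% and *FOSB* at most at 0.608% on the main scale of the levels.

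Among the JUN genes, *JUND* led in siControl with DMSO, with 44.8% of 3805 normalized counts per kb, ahead of *JUN* with 36.4% and *JUNB* with 18.8%. With siANKRA2 in DMSO the sum was 5727, of which *JUND* made up 13.0%, *JUN* 53.8% and *JUNB* 33.2%. With Nutlin-3a in siControl cells a sum of 5528 held 28.9% *JUND*, 41.3% *JUN* and 29.7% *JUNB*. In siRFXANK cells *JUND* made up 39.5% in DMSO and 25.6% in Nutlin-3a, where *JUNB* made up 38.7%. The JUN shares depend on the scale of the levels. One such scale sets the mean of the 6 groups to the authors' mean, which for *ANKRA2* lay far above every group level. Whether that scale suits the JUN genes was not tested. With levels scaled to the authors' mean, *JUND* made up 58.9% in siControl with DMSO and 20.9% in siANKRA2 with DMSO. On that scale it led in siControl with Nutlin-3a, with 42.1% against 36.0% for *JUN* and 21.9% for *JUNB*. It also led in siRFXANK with Nutlin-3a, with 38.4% against 32.1% for *JUN* and 29.4% for *JUNB*, so which JUN gene was most abundant in these 2 groups depends on the scale. A depth factor for each group, the scale chosen after seeing the data, kept the main leaders. There *JUN* had 39.5% against 31.7% for *JUND* in siControl with Nutlin-3a, and *JUNB* 37.6% against 34.2% for *JUN* in siRFXANK with Nutlin-3a. Among the FOS genes the leading gene was the same on all 3 scales in all 6 groups. The exon lengths come from GENCODE 29 and may differ from the annotation used for counting.

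**Figure D4:**
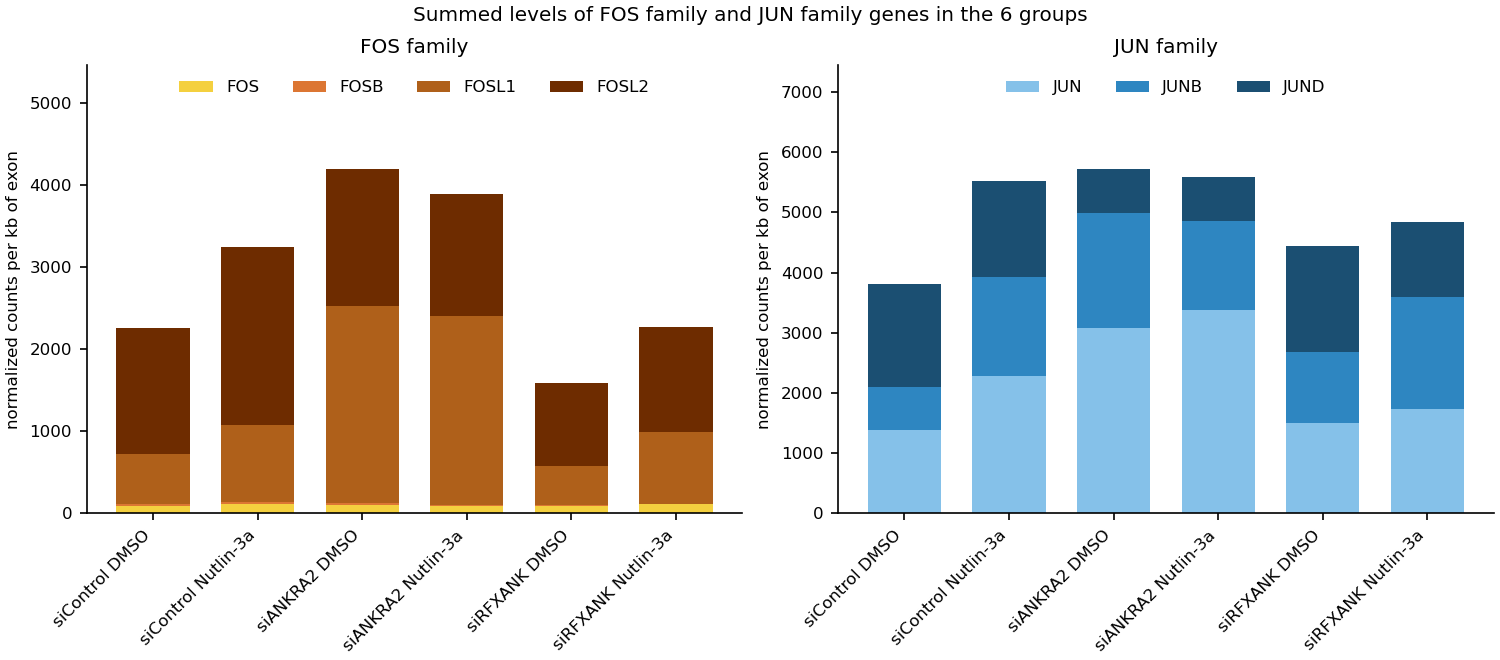
Summed levels of the FOS genes (left) and JUN genes (right) in normalized counts per kb of exon for the 6 groups, stacked by gene; the bars have no error shown. *FOSL1* makes up 57.0% of the FOS sum and *JUND* 13.0% of the JUN sum in siANKRA2 with DMSO, against 27.4% and 44.8% in siControl with DMSO; scaled to the authors' mean, *JUND* makes up 20.9% and 58.9%.

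For the 3 members with the widest range, the genes of most similar pattern were sought among those with a mean of at least 100, by the root mean square (RMS) difference of centred log2 levels over the 6 groups. Nearest to *ATF3* were *BEX2*, with an RMS difference of 0.07, *AL390729.1*, with 0.11, and *FOXD1*, with 0.12. Among the nearest to *FOSL1* were *AC079949.2* (0.11) and *UAP1* (0.13). For *FOSB* the nearest were *DYNC2H1* (0.20), *FAM167A* (0.26) and *LUZP1* (0.29). The SE of a log2 level of *FOSB* was 0.11 to 0.21, so these distances cannot be compared with those of the other 2 genes.

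Genes around the set were examined by lists, chosen for their place in the pathway. Their counts stand against the shares of all genes called, which were 21.9% higher and 21.2% lower for Nutlin-3a in siControl cells, 24.3% and 24.5% for siANKRA2 in DMSO, and 20.9% and 21.2% for siRFXANK in DMSO. Among 29 other immediate early genes, 23 rose and 2 fell with Nutlin-3a in siControl cells, with a median log2 fold change of 0.50 beside 0.02 over all genes. The antiproliferative gene *BTG2*, a p53 target, rose by 2.79 ± 0.04, *PLK3* by 1.90 and *ARC* by 1.77. With siANKRA2 in DMSO, 24 of the 29 rose and 1 fell, with a median of 1.28, led by the kinase gene *SGK1* with 3.005 ± 0.08, *TRIB1* with 2.64 and *GEM* with 2.47. The gene that fell was *KLF4*, with −3.17 ± 1.15 and an authors' mean of only 4.67, named here after its value was seen. The response to Nutlin-3a was lower in siANKRA2 than in siControl cells in 21 of the 29, against 12.5% of all genes, and higher in 1, against 11.4%. The latter was *NR4A2*, which differed by 0.84. With siRFXANK in DMSO 16 rose and 5 fell, among them *RHOB* with 1.65 and *MYC* with −1.05, and the response differed downwards in 11, against 9.64% of all genes, and upwards in 5, against 11.6%.

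The genes that report ERK output, most of them phosphatases and Sprouty proteins that restrain the pathway, were read in the same comparisons. Of 17 tested, 10 rose and 2 fell with Nutlin-3a in siControl cells, against 21.9% and 21.2% of all genes. With siANKRA2 15 rose and 1 fell in DMSO, against 24.3% and 24.5%, and 14 rose and 1 fell in Nutlin-3a, against 24.6% and 25.5%. *DUSP1*, a phosphatase of MAP kinases, rose by 3.44 ± 0.06 with siANKRA2 in DMSO and *DUSP6*, which acts on ERK, by 2.18 ± 0.14. The gene that fell in both media was *CCND1*, which encodes cyclin D1, with −0.66 in DMSO and −1.63 in Nutlin-3a. The list median was 0.94 in DMSO and 0.62 in Nutlin-3a. With siRFXANK, 10 rose and 4 fell in DMSO, against 20.9% and 21.2%, with *DUSP8* at 1.37 and *DUSP1* at 1.23.

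Of 10 EGFR family receptors and ligands, 6 rose and 1 fell with Nutlin-3a in siControl cells, against 21.9% and 21.2% of all genes. The ligand genes *AREG* and *HBEGF* rose by 2.50 ± 0.14 and 1.81 ± 0.06, *NRG1* rose by 1.51 ± 0.05, and the receptor gene *ERBB3* fell by 1.04. With siANKRA2 in DMSO, 5 rose and 2 fell, against 24.3% and 24.5%, and *AREG* rose by 1.98 ± 0.14. In Nutlin-3a, 2 were higher and 5 lower after siANKRA2, against 24.6% and 25.5%. There *HBEGF* had −0.79 and *EGFR* −0.69, while *ERBB3* had 0.72. Responses of this list to Nutlin-3a were lower in siANKRA2 than in siControl cells in 5 of 10, against 12.5% of all genes, with *AREG* at −2.07 ± 0.18 and *HBEGF* at −1.69 ± 0.08, while that of *ERBB3* was higher, with 1.22. With siRFXANK in DMSO 3 of the list rose and 4 fell, against 20.9% and 21.2%. Of the 17 kinases and SRF and ELK factors themselves, 5 rose and 5 fell with Nutlin-3a in siControl cells, against 21.9% and 21.2% of all genes. In DMSO siANKRA2 gave 9 higher and 5 lower, against 24.3% and 24.5%, where *MAP2K3* rose by 1.19 and *ELK4* fell by 1.13. With siRFXANK in DMSO 7 rose and 6 fell, against 20.9% and 21.2%, and *MAPK9* rose by 1.44 while *SRF* fell by 0.83.

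Of 20 established AP-1 target genes, 12 rose and 2 fell with Nutlin-3a in siControl cells, against 21.9% and 21.2% of all genes, with a median of 0.85. The integrin gene *ITGA2* rose by 1.99 ± 0.11 and *CD44*, which encodes a hyaluronan receptor, by 1.74 ± 0.05. With siANKRA2 in DMSO, 16 rose and 2 fell, against 24.3% and 24.5%, with a median of 1.19. The stromelysin gene *MMP3* rose by 3.76 ± 0.13, the cytokine gene *IL11* by 3.48 ± 0.07 and the heme oxygenase gene *HMOX1* by 2.96 ± 0.05, while *CCND1* and *VIM*, which fell by 0.55, were the exceptions. In Nutlin-3a, 10 were higher and 6 lower after siANKRA2, against 24.6% and 25.5%, with a median of 0.25. The response was lower in siANKRA2 cells in 14 of 20, against 12.5% of all genes, and higher in 0, also at an unadjusted p under 0.05 in the normal test, led by *MMP9* with −1.80 and *LIF* with −1.77. With siRFXANK in DMSO 11 rose and 4 fell, against 20.9% and 21.2%, and *MMP3* rose by 2.95 ± 0.13. *CCND1* and *PHLDA1* stand in 2 lists each, and *VIM* is also a mesenchymal marker.

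Other leucine zipper genes that can pair with AP-1 proteins form a further list. Of 18 tested, 7 rose and 4 fell with Nutlin-3a in siControl cells, against 21.9% and 21.2%, and *MAF* rose by 2.12 ± 0.09. With siANKRA2 in DMSO 10 rose and 3 fell, against 24.3% and 24.5%. There *DDIT3*, a stress-induced factor also named CHOP, rose by 1.12, and *MAF* and *JDP2*, a repressor that binds JUN, fell by 1.11 and 0.99. With siRFXANK in DMSO 5 rose and 5 fell, against 20.9% and 21.2%.

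A list of 10 heat shock genes, which encode chaperones and their partners, was read alongside. With Nutlin-3a in siControl cells 0 rose, also at an unadjusted p under 0.05 in the authors' DESeq2 test, and 8 fell, against 21.9% and 21.2% of all genes, with *HSPA1A* at −0.99 ± 0.05 and *HSP90AA1* at −0.85. With siANKRA2 in DMSO 4 rose and 5 fell, against 24.3% and 24.5%, and the largest rise among the more abundant genes was 0.27, in *BAG3*. With siANKRA2 in Nutlin-3a 6 rose and 4 fell, against 24.6% and 25.5%, and *HSPA1A* rose by 1.22. The list median was −0.51 for Nutlin-3a in siControl cells and −0.10 for siANKRA2 in DMSO. The part of stress from handling in any of these results was not tested. With siRFXANK in DMSO 3 rose and 6 fell, against 20.9% and 21.2%. In the difference of responses between siANKRA2 and siControl 7 were higher and 1 lower, against 11.4% and 12.5%. *HSPA1A* and *HSPA1B* are near-identical copies, so their values are uncertain.

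**Figure D5:**
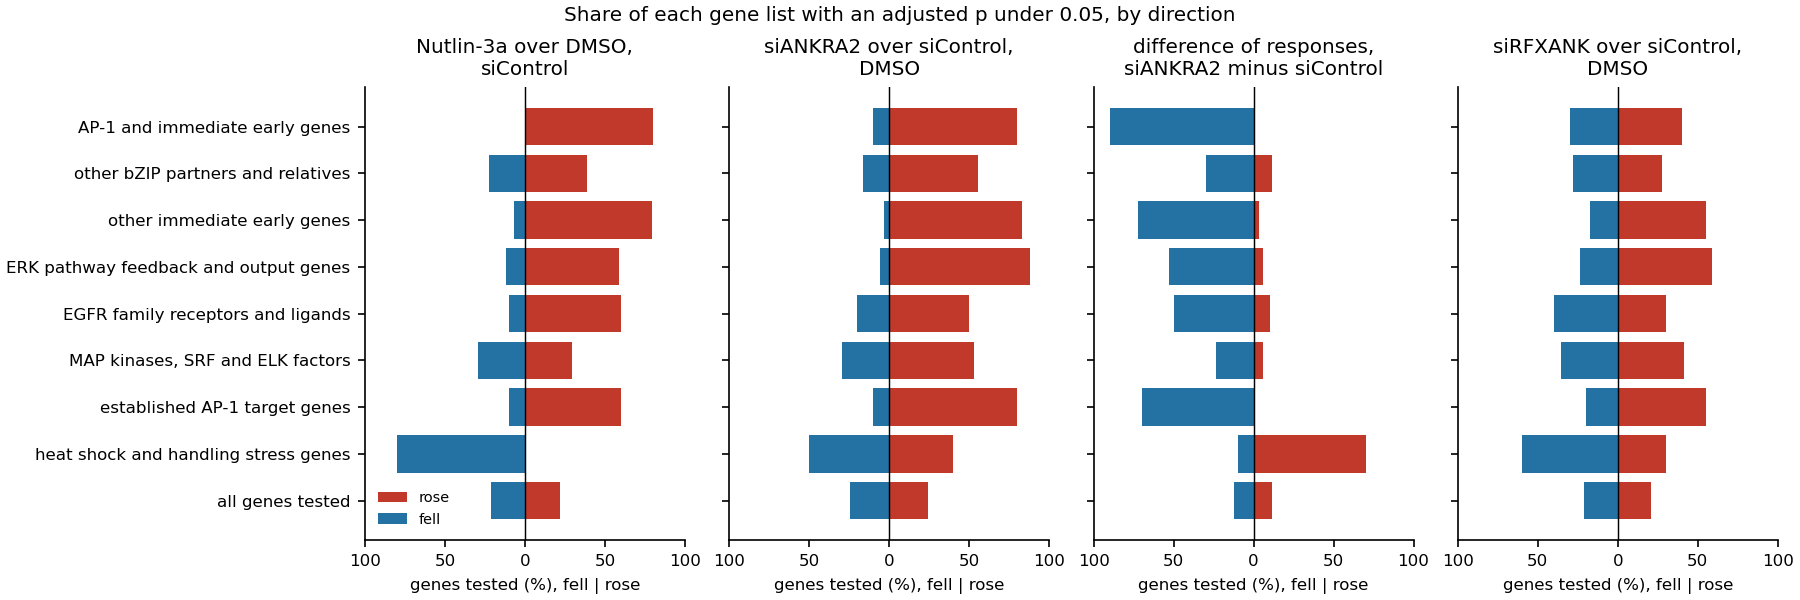
Share of each gene list that rose (right, red) or fell (left, blue) with an adjusted p under 0.05, in percent of the genes tested, for 4 comparisons, with all genes tested in the bottom row. In the difference of responses between siANKRA2 and siControl cells, 9 of 10 AP-1 and immediate early genes, 21 of 29 other immediate early genes and 14 of 20 AP-1 target genes were lower, beside 12.5% of all genes.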

How the data were processed

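The authors deposited 6 comparison tables made with DESeq2. Per the labels' processing notes, bcl2fastq 2.20.0.422, Trimmomatic 0.39, FastQC 0.11.9, cutadapt 2.10, SAMtools 1.10, Picard, featureCounts 1.6.5 and DESeq2 1.20.0 were used by the authors on hg38. The aligner, the annotation and the use of strand are not given in the sources used here. Each table gives the authors' mean of normalized counts, treated as a signal, which was equal in all tables. It also gives the authors' log2 fold change and its standard error on the log2 scale, the deposited Wald score, and the authors' p-value, raw and adjusted. Tables held 22738 to 26702 genes. Library depths were not used here.

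The authors' DESeq2 calls at an adjusted p under 0.05 were read as deposited. Differences of responses and the siRFXANK response were computed with a 2-sided normal test and the Benjamini-Hochberg adjustment over all genes. Group levels were fitted by least squares, with the variance of a log2 mean taken as the sum of 1/mean and dispersion, over the 3 samples and the squared natural logarithm of 2. Python 3.11.15, NumPy 2.4.6, SciPy 1.17.1, pandas 2.3.3 and matplotlib 3.10.9 were used, and the derived results and the level fit were tested on simulated data. The simulated SEs followed the same variance formula as the fit, with equal depths. The simulation therefore checked the computation and not whether the formula suits these data. Intervals are 95% and not adjusted.

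The members and the gene lists were chosen with earlier results of these data known. Named are all members and, from each other list and comparison, up to 3 rises and 3 falls that were largest among called genes with a mean of at least 100. Alternatives were a threshold of 0.01, a minimum absolute log2 fold change of 1, minimum means of 10 and 100, recentring on the median, adjustment over all genes, a Student distribution with 12 degrees of freedom, another pair of tables, and 2 other scales of the levels. *BATF*, *SPRY1* and *CD3E* were not in the tables, and some genes the rule names are not reported here.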

Additional observations from a re-analysis of the deposited data

Results flagged for a closer look

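The response to Nutlin-3a differed between siANKRA2 and siControl cells, by the normal test of the difference with Benjamini-Hochberg adjustment, in 9 members, all with a lower response, as in 12.5% of all genes, and 0 with a higher one (also at an unadjusted p under 0.05), against 11.4%. The differences of log2 fold changes, siANKRA2 minus siControl, were −0.62 for *FOS*, −0.60 for *FOSB*, −0.66 for *FOSL1*, −0.67 for *FOSL2*, −0.59 for *JUN*, −1.56 for *JUNB*, −0.39 for *ATF3*, −1.65 for *EGR1* and −1.07 for *MAFF*. Between siRFXANK and siControl cells it differed in 6 members, 2 with a higher response, against 11.6% of all genes, and 4 with a lower one, against 9.64%. The differences, siRFXANK minus siControl, were 1.03 for *FOSB*, 0.28 for *FOSL1*, −0.53 for *JUN*, −0.53 for *JUNB*, −0.41 for *JUND* and −0.78 for *EGR1*. The call of *FOSB* for siANKRA2 and that of *FOSL1* for siRFXANK were lost at 0.01 and with a Student distribution. Both sets of differences use the same siControl samples.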

How the results depend on the processing

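No paired analysis was possible because the tables hold no values of single libraries, and for the same reason no library was left out and no other count model was run. When the absolute log2 fold change also had to reach 1, the members called dropped from 8 to 3 for Nutlin-3a in siControl cells, from 6 to 0 for Nutlin-3a in siANKRA2 cells, from 9 to 3 for siANKRA2 in Nutlin-3a, from 7 to 1 for siRFXANK in DMSO, from 8 to 1 for siRFXANK in Nutlin-3a, from 9 to 3 for the siANKRA2 difference of responses, from 6 to 1 for the siRFXANK difference and from 9 to 2 for the derived siRFXANK response, since the size limit removes small changes. Under the other alternatives the counts of members called in either direction stayed within 1.5 times. By direction, the members with a higher response in the siRFXANK difference went from 2 to 1 at 0.01, with a minimum mean of 100 and with the Student distribution. With the size limit 88 counts moved further, those of members included. Of the counts over the other gene and marker lists, 8 moved further at 0.01, 2 with a minimum mean of 10, 6 with a minimum mean of 100 and 3 with a Student distribution of 12 degrees of freedom. Recentring moved the comparisons by −0.02 to 0.02 on the log2 scale and changed no call among the members. At 0.01, 5 calls among the members were lost. With the Student distribution 2 were lost, *FOSB* in the siANKRA2 difference and *FOSL1* in the siRFXANK difference. No called value changed its direction. The summed level of the members in siControl with DMSO was 26937 normalized counts, 25031 when scaled to the authors' mean and 25774 with a depth factor for each group, an alternative chosen after seeing the data. This sum hides shifts in opposite directions: the authors' mean was 1.38 times the recovered mean for *JUND* and 0.699 times for *JUNB*, and the shares of the JUN genes in their sum changed with it. Of the levels and their sum, 48 moved beyond the SD of a sample when scaled to the authors' mean and 25 with depth factors. The cause of these shifts was not tested. With unknown depth, *FOSB* is the least precise member.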
